A study of Mus musculus with 27 samples.

Results

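Expression of 10 mouse genes that mark early blood progenitors was followed across 9 groups of samples. The genes were taken by symbol and were present in each of the 3 deposited count tables, out of 46078 genes in the table of ProT cells, 46078 in the table of empty vector and TAL1 mice and 22906 in the table of AKT(E17K) mice. They encode the transcription factors Erg, Spi1, Mef2c, Hhex, Hoxa9, Meis1 and Bcl11a, the growth factor receptors Kit and Flt3, and the surface protein Cd34. The rule names symbols and sets no threshold on a value, and earlier results of these data were known when the genes were picked.

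The series title links TAL1, a basic helix-loop-helix factor switched on in T cell acute lymphoblastic leukaemia, to activation of PI3K and AKT. ProT cells, a mouse cell line, gave 15 RNA sequencing libraries, with 3 at each of 0, 6, 12, 18 and 24 h of 4OH tamoxifen. The labels describe these cells as having TAL1 induced with CreER and LoxP and give no strain. Nothing in them states that the libraries of 1 time were grown separately. P-values in ProT cells therefore measure the spread between these libraries alone, which may be technical. The samples include no ProT library kept without tamoxifen to a later time, and no line without inducible TAL1. In every change from 0 h, TAL1 induction, tamoxifen, CreER activity and time in culture thus cannot be told apart. Thymus came from 12 C57BL/6 mice that had all received a bone marrow transplant, 3 in each of 4 groups, labelled empty vector (EV), TAL1 overexpression (TAL1), AKT(E17K) (AKT), and TAL1 with AKT(E17K) (AKT with TAL1). AKT(E17K) is an activated form of the kinase AKT1. The labels give no age and do not say which promoter drove the transgenes. A thymus can hold cells of donor and host origin, and the counts do not separate them.

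Early blood progenitors, among them the earliest in the thymus, can carry KIT and FLT3, tyrosine kinase receptors for stem cell factor and FLT3 ligand. These cells use a set of transcription factors that includes PU.1 (encoded by Spi1), ERG, MEF2C, HHEX, BCL11A, MEIS1 and HOXA9. When a thymocyte commits to the T lineage, this set is normally shut off, and in human T cell leukaemia several of its members are expressed abnormally. CD34 is a surface protein used to enrich blood progenitors.

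Libraries held 2660641 to 6599146 counts in genes in ProT cells, 3893990 to 11302098 in the EV and TAL1 mice and 2073752 to 3661056 in the AKT table. Between replicates, the biological coefficient of variation came to 11.6%, 22.0% and 35.0% in that order, so the ProT libraries resolve the smallest changes. Tal1 counts did not follow the labels: they were 0 in 11 of the 12 mice and 7 in AKT mouse m121, and in ProT cells they were already 2895 to 3098 CPM (counts scaled to 1000000 per library) at 0 h and 1963 to 2068 CPM at 24 h. A human TAL1 transgene, or a transgene without the counted parts of mouse Tal1, would not appear in these counts, so the zeros do not show that TAL1 was absent. Groups are called by their labels. All 7 T cell markers examined were detected in every ProT library, with a sum of 768 to 970 CPM, while the B cell factor Pax5 and the B cell marker Ms4a1 were at 0 in all 15. Cpa3, a protease gene of mast cells and early progenitors, made up most of the megakaryocyte and mast cell markers, whose sum was 268 to 295 CPM at 0 h and 475 to 506 CPM at 24 h. Of that list 3 of 6 genes were tested and all 3 rose at 24 h, while Pf4, Gp9 and Ms4a2 were at 0 in 11, 9 and 11 of the 15 libraries. The sum of the macrophage and neutrophil markers was 64.0 to 74.4 CPM at 0 h and 44.2 to 51.5 CPM at 24 h. The part of these marker changes in the values below was not tested.

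Erg and Mef2c were the members with the widest changes in ProT cells, and for each of them 1 of 3 promoter windows held a motif searched for, shown here because the changes below are those of these 2 genes. Windows run from 250 bases before to 50 bases after an annotated start (RefSeq, GRCm38.p6), 5′ to 3′ on the strand of the gene, and capitals mark the match. The windows were picked after the matches were seen.
Erg, chr16:95459299-95459598, minus strand: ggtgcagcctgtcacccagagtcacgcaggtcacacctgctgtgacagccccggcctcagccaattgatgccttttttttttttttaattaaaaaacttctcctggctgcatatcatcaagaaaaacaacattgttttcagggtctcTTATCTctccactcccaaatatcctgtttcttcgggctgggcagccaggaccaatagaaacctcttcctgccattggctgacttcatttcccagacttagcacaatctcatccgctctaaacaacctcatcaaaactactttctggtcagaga
Mef2c, chr13:83573357-83573656, plus strand: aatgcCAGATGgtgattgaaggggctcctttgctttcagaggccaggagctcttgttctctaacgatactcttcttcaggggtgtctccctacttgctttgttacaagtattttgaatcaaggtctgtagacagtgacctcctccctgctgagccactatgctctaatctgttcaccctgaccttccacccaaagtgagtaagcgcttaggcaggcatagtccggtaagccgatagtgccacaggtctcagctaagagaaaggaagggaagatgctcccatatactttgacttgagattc

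The Erg match, its first base at -103 from the start, is TTATCT, the reverse complement of AGATAA, the letters that GATA factors bind. The Mef2c match, its first base at -245, is CAGATG, the E-box bound by TAL1 with an E protein. Over the 14 windows found for 9 members (Spi1 is named only), CAGATG stood in 2 (14.3%), in Mef2c and Flt3, against 17.2% of all 32851 windows of the table, both strands read. AGATAA stood in 1 window (7.14%, against 11.2%). The RUNX letters TGTGGT and the ETS letters CCGGAA each stood in 1 window, that of Meis1 (7.14%, against 16.8% and 14.9%). Neither Kit window held any of the 4 motifs. The members' windows thus held each motif at or below its share among all windows, and a match describes letters in a window, not a bound site.

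In ProT cells 8 of the 10 genes had at least 5 counts in every library and passed the low-count filter. The other members were Meis1, under 5 counts in 3 of 15 libraries, and Hoxa9, under 5 in 14 of 15. Over all 5 times, the test called 3 of the 8 tested members, Erg (adjusted p = 1.67e-05), Mef2c (adjusted p = 2.19e-08) and Kit (adjusted p = 0.0165, edgeR's quasi-likelihood test, adjusted after Benjamini and Hochberg), beside 18.0% of all 13610 genes tested. Hhex, Bcl11a, Spi1, Flt3 and Cd34 did not pass it. In bulk RNA such as this, fewer cells of a type and less RNA per cell cannot be told apart.

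**Figure D1:**
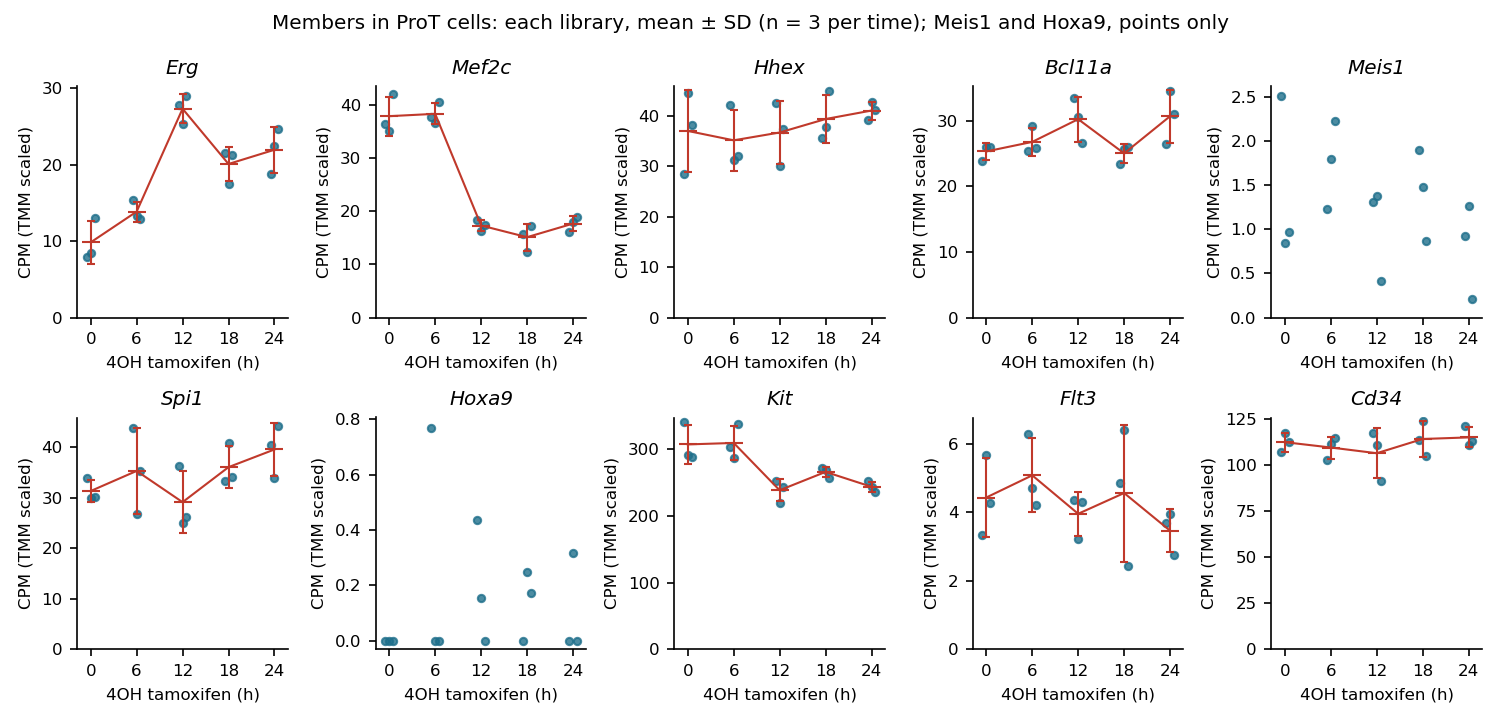
CPM of each member (y axis, own scale per panel) against hours of 4OH tamoxifen (x axis) in ProT cells; blue points are libraries, red lines join means with SD over 3 libraries, and Meis1 and Hoxa9 are shown as points only. Erg is higher and Mef2c lower at 12, 18 and 24 h than at 0 h with no overlap of the libraries, and Cd34 stays between 91.2 and 124.3 CPM.

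Erg (ENSMUSG00000040732, chromosome 16, 95359169 to 95586593, minus strand, GRCm38 with GENCODE M21 as for all positions below) encodes an ETS factor needed by haematopoietic stem cells and is often active in T cell leukaemia. It was 1.96-fold to 2.65-fold higher from 12 h on than at 0 h. The 3 libraries had 7.95, 8.50 and 13.0 CPM at 0 h (19, 30 and 67 counts) and 15.4, 13.3 and 12.9 CPM at 6 h. After 12 h they had 27.7, 25.2 and 28.9 CPM, after 18 h 21.5, 17.5 and 21.2 CPM, and after 24 h 18.7, 22.4 and 24.6 CPM. Every library from 12 h on was above every library of 0 and 6 h, while 0 and 6 h overlapped at their edges.

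Relative to the 0 h libraries, Erg rose on the log2 scale by 1.41 ± 0.19 (SE) after 12 h (2.65-fold, edgeR, adjusted p = 1.44e-05). The rise was 0.97 ± 0.19 after 18 h (1.96-fold, adjusted p = 0.0021) and 1.09 ± 0.19 after 24 h (2.12-fold, adjusted p = 0.000276). After 6 h the estimate was 0.44 ± 0.20, which did not pass (adjusted p = 0.908). The step from 6 h to 12 h was 0.97 ± 0.17 (adjusted p = 0.000368). From 12 h to 24 h the estimate was -0.32 ± 0.16 (adjusted p = 0.589), so a change after 12 h was not detectable between these libraries.

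Spi1 (ENSMUSG00000002111, chromosome 2, 91082390 to 91115756, plus strand) encodes PU.1, the other ETS member of the set, which drives myeloid genes and is silenced at T lineage commitment. Its libraries had 33.9, 30.0 and 30.2 CPM at 0 h, and values of 43.9, 26.8 and 35.4 after 6 h. The 12 h libraries had 36.3, 24.9 and 26.2 CPM and the 18 h libraries 33.3, 40.9 and 34.1 CPM. Those of 24 h had 40.5, 34.0 and 44.4 CPM, all above the 3 libraries of 0 h by a narrow margin. The log2 fold change at 24 h was 0.34 ± 0.17 and did not pass (adjusted p = 0.153, edgeR). It passed when 0 and 24 h were fitted alone (0.34, adjusted p = 0.0403) and with scaling by library size only (0.53, adjusted p = 0.0405). Without the first 12 h library the test over all times passed for Spi1 (adjusted p = 0.0498). Of 19 myeloid genes known to be activated by PU.1, 16 were tested, and 0 passed at 24 h (2 higher with library size only), with a median log2 fold change of 0.06 beside -0.01 for all genes.

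Mef2c (ENSMUSG00000005583, chromosome 13, 83504034 to 83667080, plus strand) encodes a MADS box factor of lymphoid and myeloid progenitors that is expressed in immature T cell leukaemia. It fell by more than 2-fold between 6 and 12 h and then stayed low. The libraries had 36.4, 35.1 and 42.0 CPM at 0 h and 37.8, 36.7 and 40.5 CPM at 6 h. After 12 h they had 18.3, 16.2 and 17.4 CPM, after 18 h 15.8, 12.3 and 17.2 CPM, and after 24 h 16.1, 18.0 and 18.9 CPM. The 6 libraries of 0 and 6 h were all above the 9 later ones.

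Relative to the 0 h libraries, the log2 fold change of Mef2c was 0.01 ± 0.14 after 6 h (edgeR, adjusted p = 0.995) and -1.14 ± 0.14 after 12 h (2.20-fold lower, adjusted p = 9.9e-06). After 18 h it was -1.32 ± 0.15 (2.50-fold lower, adjusted p = 3.84e-06) and after 24 h -1.11 ± 0.14 (2.16-fold lower, adjusted p = 1.11e-05). From 6 h to 12 h it was -1.14 ± 0.14 (adjusted p = 4.68e-06), and from 12 h to 24 h 0.02 ± 0.15 (adjusted p = 0.978). Of its relatives Mef2a, Mef2b and Mef2d, the class IIa deacetylases that MEF2 factors recruit, and Nr4a1, 6 of 8 were tested and 0 were called at any time against 0 h (1 higher at 24 h with library size only), with a median at 24 h of 0.05 beside -0.01 for all genes.

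Hhex (ENSMUSG00000024986, chromosome 19, 37434810 to 37440731, plus strand) encodes a homeobox repressor of stem and early lymphoid cells. Its libraries ranged from 28.4 to 44.9 CPM, with 28.4, 44.5 and 38.2 CPM at 0 h and 39.3, 42.8 and 41.2 CPM at 24 h. The 0 h libraries alone spanned most of that range, and the log2 fold change at 24 h was 0.13 ± 0.16 (adjusted p = 0.596).

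Bcl11a (ENSMUSG00000000861, chromosome 11, 24078056 to 24174123, plus strand), a zinc finger repressor needed for early lymphoid development, had 23.8, 26.1 and 26.1 CPM at 0 h and 26.5, 34.6 and 31.0 CPM at 24 h. The 24 h libraries were above those of 0 h by a small margin, and the log2 fold change of 0.27 ± 0.14 did not pass (adjusted p = 0.185). With scaling by library size only both the 12 h (0.44, adjusted p = 0.0462) and the 24 h change passed (0.46, adjusted p = 0.0315).

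Meis1 (ENSMUSG00000020160, chromosome 11, 18879817 to 19018985, minus strand), a TALE homeobox partner of HOXA9 in stem cells, had 1 to 10 counts per ProT library. The counts were 6, 3 and 5 at 0 h and 6, 8 and 1 at 24 h, so depth left it untested. Hoxa9 (ENSMUSG00000038227, chromosome 6, 52223100 to 52231089, minus strand), a HOX factor of stem cell self-renewal, had 0 counts in 9 of 15 libraries and at most 5, in the first 6 h library. A count of 0 allows up to 0.455 to 1.13 CPM per ProT library, taken as 3 counts of its total in genes and covering counting error only. The CPM of the members use a filtered and scaled total instead. On it the 3 Meis1 counts of the second 0 h library are 0.850 CPM, against 0.755 on the total in genes. Of 20 other HOXA cluster genes, TALE genes and their cofactors, 8 were tested, and 0 passed at 24 h (1 higher with library size only), with a median of -0.05. These 8 were Meis3, Pbx2, Pbx3, Pbx4, Pknox1, Kmt2a, Men1 and Dot1l, so no HOXA gene was tested in ProT cells. At 18 h, 1 of the 8 was called lower, beside 3.92% of all genes.

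Kit (ENSMUSG00000005672, chromosome 5, 75574916 to 75656722, plus strand), the receptor of stem cell factor, was the member with most counts in ProT cells and showed a small decline. The libraries had 342, 292 and 289 CPM at 0 h and 304, 287 and 338 CPM at 6 h. After 12 h they had 252, 220 and 244 CPM, after 18 h 272, 269.5 and 257 CPM, and after 24 h 252, 243 and 237 CPM. The 9 libraries from 12 h on were all below the 6 earlier ones.

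Relative to the 0 h libraries, the log2 fold change of Kit was 0.01 ± 0.11 after 6 h (edgeR, adjusted p = 0.991) and -0.36 ± 0.11 after 12 h (1.29-fold lower, adjusted p = 0.0252). After 18 h it was -0.21 ± 0.11 (adjusted p = 0.239) and after 24 h -0.33 ± 0.11 (1.26-fold lower, adjusted p = 0.029). From 6 h to 12 h it was -0.38 ± 0.11 (adjusted p = 0.0208). These calls were not firm. With scaling by library size only, Kit was -0.17 after 12 h (adjusted p = 0.35), -0.14 after 24 h (adjusted p = 0.428) and -0.28 from 6 to 12 h (adjusted p = 0.142), and the call over all times ended too (adjusted p = 0.327). With no filter on low counts the 12 h and 24 h calls ended (adjusted p = 0.0749 and 0.0946), and with the 2 times fitted alone those of 12 h and of 6 to 12 h (adjusted p = 0.0599 and 0.148).

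Single libraries also decided the Kit calls. The 12 h call ended without the first (-0.28, adjusted p = 0.151) or the second 0 h library (-0.40, adjusted p = 0.0521) and without the second 12 h library (-0.31, adjusted p = 0.104). The 24 h call ended without the first (-0.25, adjusted p = 0.167) or the second 0 h library (-0.36, adjusted p = 0.0546) and without any 24 h library (adjusted p = 0.0638, 0.0868 and 0.094). The call from 6 h to 12 h ended without the third 6 h library (-0.31, adjusted p = 0.119) or the second 12 h library (-0.32, adjusted p = 0.1), and the call over all times without the third 6 h library (adjusted p = 0.0521).

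Flt3 (ENSMUSG00000042817, chromosome 5, 147330741 to 147400489, minus strand), the receptor of FLT3 ligand, was the least abundant of the tested members, with 8 to 41 counts per library. It had 3.35, 5.67 and 4.28 CPM at 0 h and 3.68, 3.95 and 2.76 CPM at 24 h, ranges that overlap (log2 fold change -0.36 ± 0.36, adjusted p = 0.506). Cd34 (ENSMUSG00000016494, chromosome 1, 194938819 to 194961279, plus strand) had 107.1, 117.6 and 112.9 CPM at 0 h and 121.3, 110.8 and 113.3 CPM at 24 h. Its log2 fold change at 24 h was 0.03 ± 0.11 (adjusted p = 0.872), and against 0 h its estimate at no time lay further from 0 than -0.08.

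**Figure D2:**
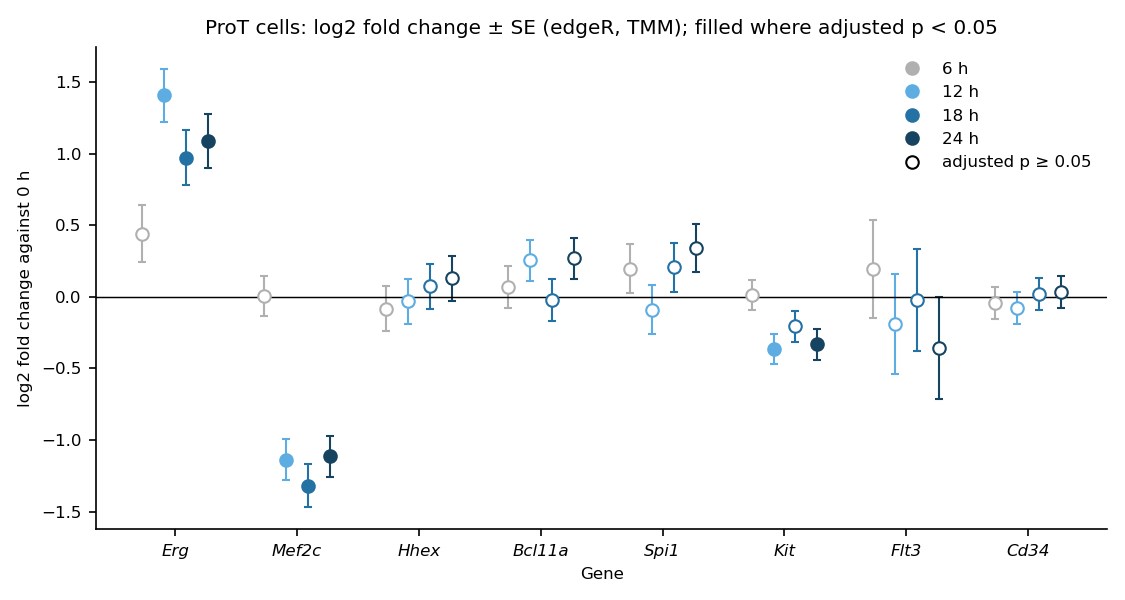
Log2 fold change against 0 h (y axis) with its SE for the 8 tested members (x axis) at 6, 12, 18 and 24 h in ProT cells, filled where the adjusted p of edgeR is under 0.05. The filled points are Erg above 0, Mef2c below 0 at 12, 18 and 24 h, and Kit below 0 at 12 and 24 h.

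Against the background of each contrast, the members' calls read as follows. At 6 h, 0 members and 0 of 13610 genes were called higher or lower (0%) by edgeR, 734 genes had an unadjusted p under 0.05, and DESeq2 called 1 gene. At 12 h, 1 member was higher beside 6.33% of all genes and 2 were lower beside 5.69%. At 18 h, 1 was higher (4.89% of genes) and 1 lower (3.92%). At 24 h, 1 was higher (9.43%) and 2 lower (9.30%). From 6 h to 12 h, 1 was higher (5.54%) and 2 lower (5.31%). From 12 h to 24 h, 0 members were called, beside 0.0367% of genes higher and 0.154% lower, and 1157 genes had an unadjusted p under 0.05. The median log2 fold change of the 8 tested members at 24 h was 0.08, beside -0.01 for all genes. It lay between the estimates of the uncalled members Cd34 (0.03) and Hhex (0.13).

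Scaling mattered for the balance of calls. With library size only, the median of all genes moved by 0.19 on the log2 scale at 12 h, 0.14 at 18 h and 0.19 at 24 h. Higher calls then made up 85.8% of calls at 12 h, 82.0% at 18 h and 80.5% at 24 h, against 52.7%, 55.5% and 50.3% with TMM. From 6 h to 12 h the share was 70.2% against 51.0%. With library size only, 2560 of 13610 genes were higher and 622 lower at 24 h. The list counts at 24 h given with that scaling stand beside these. Erg and Mef2c kept direction and call at 12, 18 and 24 h and from 6 to 12 h under each scaling, with DESeq2, with no filter and without each library in turn. Over the 15 fits that left out 1 library, Erg at 24 h lay between 0.98 and 1.40 (highest adjusted p 0.00461) and Mef2c between -1.16 and -1.02 (highest adjusted p 0.000257).

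Across the 15 ProT libraries, Erg and Kit moved in opposite directions (Pearson r of log2 CPM -0.84), as did Erg and Mef2c (r = -0.76), while Kit and Mef2c moved together (r = 0.78). These libraries share 5 times, so the correlations describe the time course and carry no test. Among 10882 other genes with a mean of at least 5 CPM, those most like Erg were the cyclin gene Ccni (r = 0.95), Snn (r = 0.95) and the mitotic cyclin gene Ccnb2 (r = 0.94). Those most like Mef2c were Fut7 (r = 0.96), a fucosyltransferase gene, the exchanger gene Slc24a3 (r = 0.94) and Sema4a (r = 0.94). Those most like Kit were Ldb1 (r = 0.94), which encodes an adaptor of TAL1 complexes, Tet3 (r = 0.93) and the Y-linked gene Uty (r = 0.93). For the 5 uncalled members the best correlations were lower, with Extl3 for Hhex (r = 0.87), Cap1 for Spi1 (r = 0.87), Usp34 for Bcl11a (r = 0.84), Plekhg5 for Cd34 (r = 0.82) and Poc5 for Flt3 (r = 0.80).

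Ligands and signalling genes of KIT and FLT3 were examined from a list of 28 ligands, adaptors, phosphatases, inhibitors and transcription factors, 26 of them tested. The list mixes genes that pass the signal on with genes that restrain it, so a count of rises gives no direction of signalling. At 24 h, 8 rose and 0 fell, where 9.43% of all genes tested were higher and 9.30% lower, and the list's median log2 fold change was 0.16 beside -0.01 for all genes. Pik3r2, a regulatory subunit of PI3K, went from 12.4 ± 0.876 to 23.8 ± 1.06 CPM (SD, n = 3, log2 fold change 0.95 ± 0.19, adjusted p = 0.000805). Gab2, a docking adaptor, went from 16.8 ± 1.62 to 28.0 ± 6.03 CPM (0.76 ± 0.17, adjusted p = 0.00258). Socs2, a STAT5-induced inhibitor of cytokine signalling, went from 65.7 ± 3.69 to 107 ± 4.86 CPM (0.71 ± 0.11, adjusted p = 6.74e-05). The other 5 were the adaptor genes Grb2 (0.61, adjusted p = 0.000462) and Sla (0.53, adjusted p = 0.0187) and the STAT genes Stat5b (0.59, adjusted p = 0.00184), Stat5a (0.43, adjusted p = 0.0196) and Stat3 (0.34, adjusted p = 0.0255), which carry cytokine and receptor signals to the nucleus. At 12 h 8 of the 26 rose, beside 6.33% of all genes higher, and at 18 h 9, beside 4.89%. The medians were 0.16 and 0.14, and 0 fell, beside 5.69% and 3.92% of all genes lower. From 6 h to 12 h 6 rose and 3 fell, beside 5.54% and 5.31% of all genes. The number that rose at 24 h was 12 with library size only, where 2560 of 13610 genes were higher and 622 lower. It was 8 with RLE factors and with DESeq2, and 5 to 9 without each library in turn. The 5 came without the first or the second 0 h library.

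Among 26 other progenitor transcription factors, 21 were tested, and at 24 h 5 rose and 2 fell (median 0.18), beside 9.43% of all genes higher and 9.30% lower. The 2 that fell are near the share of all genes. On the log2 scale Zfpm1, the GATA cofactor FOG1, rose by 0.93 ± 0.15 (adjusted p = 0.00014), Mycn 0.71 ± 0.15 (adjusted p = 0.0014) and Lyl1, the closest relative of Tal1, 0.66 ± 0.12 (adjusted p = 0.000278, edgeR). Runx1 (0.34, adjusted p = 0.0386) and Nfe2 (0.38, adjusted p = 0.0195) rose less, and Ikzf2 (-0.44, adjusted p = 0.0105) and Runx2 (-0.39, adjusted p = 0.0256) fell. With library size only, 7 rose and 0 fell, beside 2560 genes higher and 622 lower of 13610. Without the first or second 0 h library, or the first or second 24 h library, 3 rose, and 0, 2, 1 and 1 fell in that order. Without the third 0 h library, 3 fell. Of 16 other surface genes of early progenitors, 11 were tested, and at 24 h 3 rose and 1 fell (median 0.02), the latter near the 9.30% of all genes that were lower. Itga2b, an integrin of megakaryocytes and stem cells that is also in the marker list above, had 0.79 ± 0.19 (adjusted p = 0.00391), and Cd24a had 0.69 ± 0.11 (adjusted p = 0.000158). Cd44, an adhesion receptor, fell by 0.55 ± 0.14 (adjusted p = 0.00679) with TMM, and with library size only it was -0.36 (adjusted p = 0.117). Of 18 other ETS genes, 14 were tested, and 1 fell at 24 h. With library size only, 1 rose and 0 fell. The gene that fell was Etv3 (-0.52 ± 0.19, adjusted p = 0.047), which ended with library size only (-0.34, adjusted p = 0.178) and without any of 8 single libraries. Among these 8 were the first 0 h library (-0.26, adjusted p = 0.364), the third 6 h library (adjusted p = 0.0512), the 3 libraries of 18 h (adjusted p = 0.055, 0.0573 and 0.0553) and the 3 of 24 h (adjusted p = 0.0693, 0.119 and 0.118).

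To set the genes beside each other, counts were scaled over 22729 symbols found once in each of the 3 tables and divided by the length of all exons of a gene. These symbols held 53.7% to 65.6% of the counts in ProT libraries, 82.2% to 83.2% in the EV and TAL1 mice and 99.2% to 99.3% in the AKT table, so levels across tables depend on this choice. A smaller share raises the levels of a library, so the choice raises ProT cells relative to mice. ProT cells and mice also stand in separate tables, so cell source and experiment cannot be told apart between them. At 0 h in ProT cells Kit stood highest with 57.2 ± 6.10 CPM per kb, then Cd34 with 25.6 ± 0.991, Spi1 with 19.3 ± 1.53 and Hhex with 12.1 ± 2.55. Erg followed with 4.69 ± 1.31, Mef2c with 3.99 ± 0.376, Bcl11a with 3.18 ± 0.133, Flt3 with 1.19 ± 0.304 and Meis1 with 0.228 ± 0.148 (SD, n = 3), and Hoxa9 had no count. Of these neighbours, only Erg and Mef2c overlapped in the ranges of their libraries. At 24 h Erg was at 10.2 ± 1.27 CPM per kb, while Mef2c, at 1.82 ± 0.127, had fallen below Bcl11a, at 3.77 ± 0.506.

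Within a gene, the order of the ProT times by level per kb differed. For Erg it was 12, 24, 18, 6 and 0 h (means of 12.7, 10.2, 9.32, 6.63 and 4.69 CPM per kb), where 24 h overlapped with 18 h and 6 h with 0 h. For Mef2c it was 6, 0, 24, 12 and 18 h (4.04, 3.99, 1.82, 1.78 and 1.55), with a gap in the ranges only between 0 h and 24 h. For Kit it was 6, 0, 18, 24 and 12 h (57.7, 57.2, 48.1, 44.2 and 43.2), where 6 h overlapped with 0 h and 24 h with 12 h. Ranges of neighbouring times overlapped throughout for Hhex, Bcl11a, Spi1, Flt3, Cd34, Meis1 and for Hoxa9.

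In 7 of the 10 members, Erg, Hhex, Bcl11a, Spi1, Kit, Flt3 and Cd34, every ProT library lay above every mouse, beside 6.87% of the 17208 shared symbols with a count in any library. Kit was 39.1 to 64.2 CPM per kb in ProT cells and at most 0.589 in a thymus, and Hhex 9.42 to 14.5 against at most 0.307. Cd34 was 20.3 to 27.5 against at most 2.95, Spi1 14.7 to 27.3 against at most 11.9, and Erg 3.84 to 13.5 against at most 1.24, each of these maxima in AKT mouse m121. Mef2c overlapped through 1 mouse (EV mouse M311, 2.36 CPM per kb, above all 9 ProT libraries from 12 h on), and Meis1 and Hoxa9 overlapped more widely. With TMM scaling within each table, ProT libraries of Spi1 and Flt3 also overlapped with a thymus, leaving 5 members apart, beside 3.54% of the shared symbols. Without mouse m121, which was left out after its values were seen, 7 members were apart under either scaling, beside 7.65% and, with TMM, 4.13% of the symbols.

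**Figure D3:**
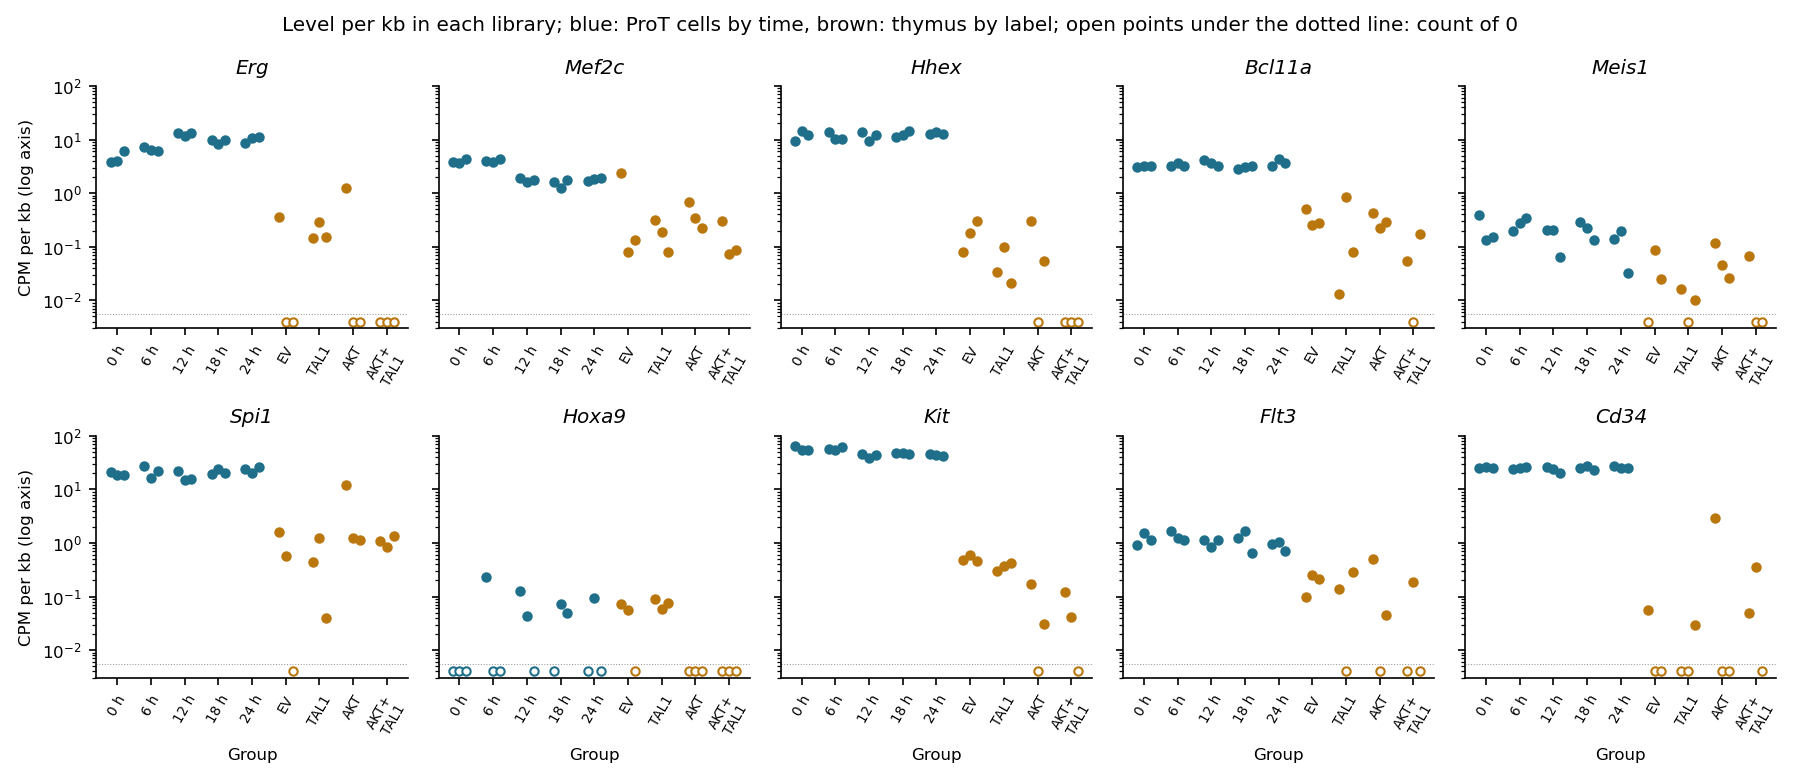
Level of each member in CPM per kb of exon (y axis, log scale) in every library of the 9 groups (x axis), ProT cells in blue and thymus in brown, with counts of 0 as open points below the dotted line. Kit, Cd34, Hhex, Spi1, Erg, Bcl11a and Flt3 lie above every thymus in all 15 ProT libraries, as do 6.87% of shared symbols, and Spi1 and Flt3 overlap with a thymus under TMM scaling.

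In thymus most members were too rare for a test. In the EV and TAL1 mice, Meis1, Hoxa9 and Cd34 were under 5 counts in every mouse, 6 members were under 5 in some, and Kit alone had at least 5 in all 6. In the AKT table, Meis1 and Hoxa9 were under 5 counts in every mouse and 7 members in some, and Spi1 alone had at least 5 in all 6. On the total in genes, a count of 0 allows up to 0.265 to 0.770 CPM in the EV and TAL1 mice and 0.819 to 1.45 CPM in the AKT table.

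Between TAL1 and EV thymus, 3 members passed the filter and 0 were called, beside 2.16% of 12357 genes higher and 2.88% lower. Mef2c had 182, 4 and 8 counts in EV mice (30.3, 1.03 and 1.68 CPM) and 29, 18 and 12 in TAL1 mice (4.15, 2.48 and 1.08 CPM), so 1 EV mouse, M311, was far above the other 5. The log2 fold change was -2.16 ± 0.96 (adjusted p = 0.263, edgeR). Without M311 it was 0.88 (adjusted p = 0.709), and with no filter on low counts it passed (-2.16, adjusted p = 7.75e-05), so the sign rested on 1 mouse and the call on the filter. M311 had the lowest summed level of T cell markers, 8816 CPM against 10620 to 12790 CPM in the other 5 mice. It had the highest sums of NK cell markers (63.9 against 3.57 to 30.6 CPM), B cell markers (13.6 against 6.83 to 12.4 CPM), dendritic markers (47.9 against 25.8 to 39.6 CPM), endothelial markers (190 against 104 to 153 CPM) and stroma markers (12.5 against 3.58 to 10.7 CPM). Its sums of macrophage and neutrophil (20.8 CPM), erythroid (5.99 CPM) and megakaryocyte and mast cell markers (3.99 CPM) lay within the range of the other mice. Pecam1, up to 188 CPM in these mice, made up nearly all of the endothelial sum, and Cdh5 was at 0 in 5 of 6 mice. The stroma markers Foxn1, Col3a1 and Pdgfra were at 0 in all 6. The part of cells with any of these markers in the Mef2c counts of M311 was not tested.

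Kit had 21, 17 and 16 counts in EV mice (3.49, 4.37 and 3.37 CPM) and 16, 20 and 36 in TAL1 mice (2.29, 2.75 and 3.24 CPM). All 3 TAL1 mice were below the EV mice in CPM, by less than the test could call (-0.43 ± 0.50, adjusted p = 0.74). Bcl11a had 33, 11 and 14 counts in EV mice and 1, 67 and 10 in TAL1 mice, where M318 stood high. Its log2 fold change was -0.17 ± 0.94 (adjusted p = 0.957), and -2.72 without M318 (adjusted p = 0.15). Mouse M318 also had a summed level of the macrophage and neutrophil markers of 371 CPM, with all 8 detected, against a lowest sum of 11.2 CPM among the TAL1 mice and 19.8 to 26.8 CPM in EV mice. Its part in the Bcl11a value was not tested.

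The members outside that test had few counts. Erg had 6, 0 and 0 counts in EV mice and 3, 6 and 5 in TAL1 mice. Spi1 had 21, 5 and 0 against 7, 20 and 1, and Flt3 3, 5 and 5 against 5, 0 and 17. Hhex had 2, 3 and 6 against 1, 3 and 1, Hoxa9 2, 1 and 0 against 3, 2 and 4, Meis1 0, 3 and 1 against 1, 0 and 1, and Cd34 2, 0 and 0 against 0, 0 and 2. None of these 7 genes was tested at this depth. Of the KIT and FLT3 list, 25 genes were tested in this contrast, and 0 rose and 2 fell (median -0.08), beside 2.88% of all genes lower. Flt3l, which encodes the ligand of FLT3, went from 36.1 ± 3.08 to 14.5 ± 4.94 CPM (SD, n = 3, log2 fold change -1.30 ± 0.25, adjusted p = 0.0102, edgeR), with adjusted p = 0.0543 without EV mouse M312. Fyn, a SRC family kinase, went from 289 ± 48.4 to 175 ± 29.7 CPM (-0.72 ± 0.15, adjusted p = 0.0114), with adjusted p = 0.0693 without M312 and 0.0638 without M315. Markers of other cells also differed between these groups. The 4 NK cell markers summed to 21.9 to 63.9 CPM in EV mice and 3.57 to 19.0 CPM in TAL1 mice, and 1 of 2 tested fell. The endothelial markers, nearly all of it Pecam1, summed to 144 to 190 CPM and 104 to 110 CPM, and the 1 tested fell, while Cdh5 was at 0 in 5 of 6 mice. Of 7 T cell markers, all tested, 1 rose. Their part in the Flt3l and Fyn values, and in those of Cd9 given next, was not tested.

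Of the MEF2 relatives and deacetylases 6 were tested, and 1 rose, beside 2.16% of all 12357 genes higher. It was Hdac7, a class IIa deacetylase of thymocytes, which went from 974 ± 51.3 to 1228 ± 47.1 CPM (0.33 ± 0.08, adjusted p = 0.0229), a call that ended without any mouse but M311 (adjusted p = 0.115, 0.0882, 0.107, 0.0549 and 0.0764 without M312, M315, M317, M318 and M319). Of the surface genes 10 were tested, and 1 fell, beside 2.88% of all genes lower. It was the tetraspanin gene Cd9, which went from 6.79 ± 1.33 to 1.58 ± 0.495 CPM (-2.10 ± 0.50, adjusted p = 0.0293), a call that ended without any mouse but M317 (adjusted p = 0.101, 0.128, 0.0672, 0.0891 and 0.0792 without M311, M312, M315, M318 and M319). The ETS, HOXA with TALE, other transcription factor and PU.1 lists held 0 called genes of 14, 9, 16 and 13 tested.

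Between AKT with TAL1 and AKT thymus, edgeR called 0 of 9782 genes in either direction (0%), 709 had an unadjusted p under 0.05, and DESeq2 called 76. Mef2c alone passed the filter among the members, with 35, 11 and 13 counts in AKT mice m121, m122 and m124 and 13, 3 and 3 in the mice with TAL1 (log2 fold change -1.49 ± 0.77, adjusted p = 0.701). The ranges overlapped through 1 mouse with TAL1. In AKT mouse m121 Spi1 had 104 counts against 7 and 11 in the other AKT mice and 8, 6 and 8 with TAL1. Cd34 had 70 counts in m121, 0 and 0 in m122 and m124, and 1, 7 and 0 with TAL1, and Erg had 14 counts in m121 and 0 in the other 5 mice. Flt3 had 10, 0 and 1 counts in AKT mice and 0, 3 and 0 with TAL1, Kit 5, 0 and 1 against 3, 1 and 0, and Hhex 5, 0 and 1 against 0, 0 and 0. Bcl11a had 18, 6 and 14 counts in AKT mice, each above the 2, 0 and 5 with TAL1, Meis1 had 4, 1 and 1 against 2, 0 and 0, and Hoxa9 had 0 in all 6.

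Mouse m121 also stood apart in markers of other cells. Its thymic stroma markers summed to 289 CPM, with 6 of 6 detected, against 4.19 to 12.0 CPM in the mice with TAL1 and a lowest sum of 10.3 CPM in AKT mice. The endothelial gene Cdh5 had 43 counts in m121 and 0 in the other 5 mice. Its macrophage and neutrophil markers summed to 876 CPM, with 5 of 7 detected, against 75.5 to 341 CPM in the mice with TAL1. The part of these cells in its Spi1, Cd34 and Erg counts was not tested.

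**Figure D4:**
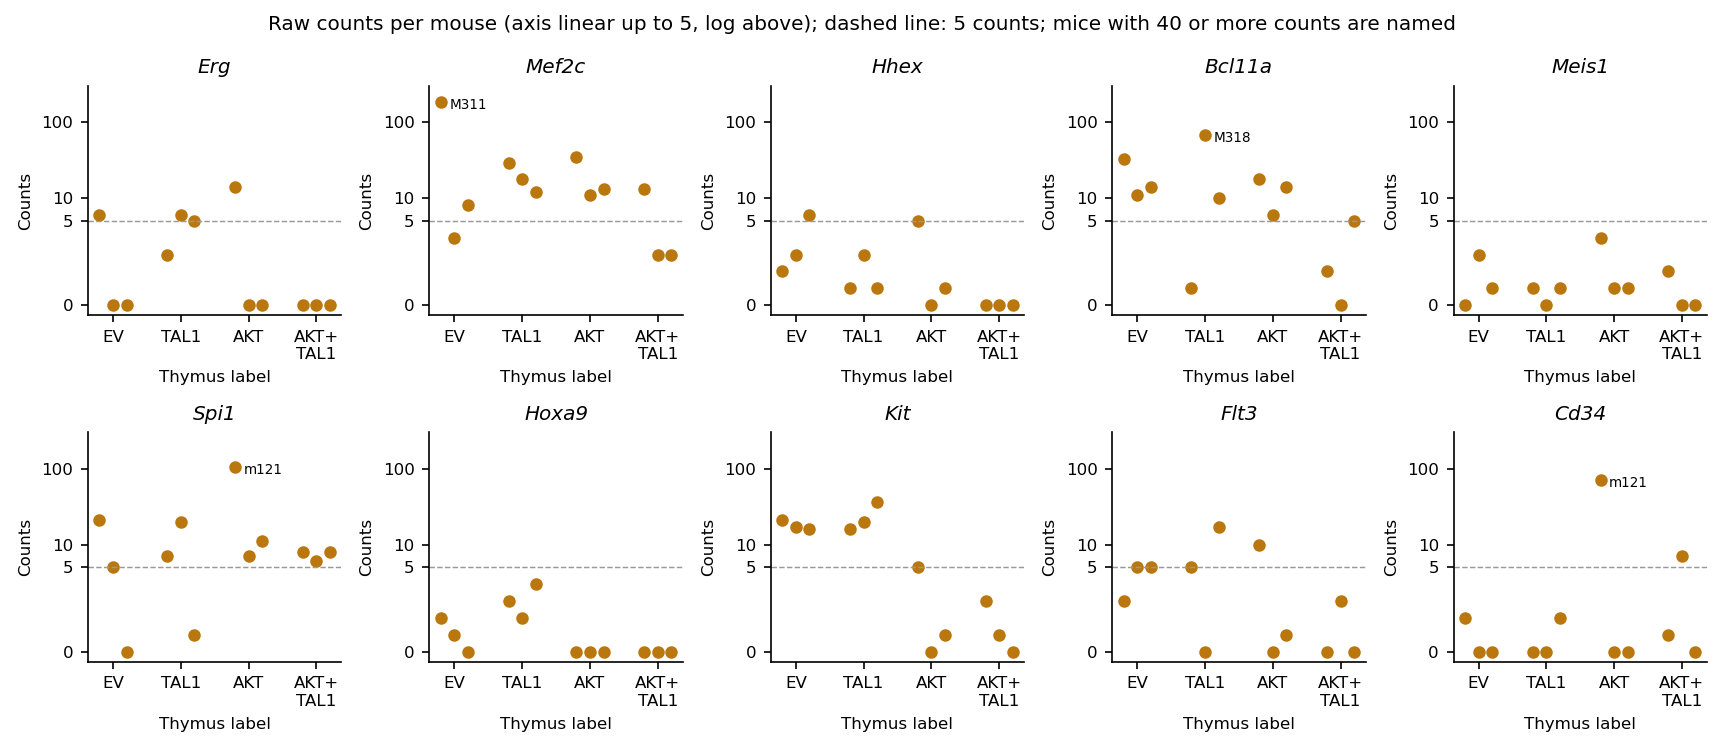
Raw counts of each member per mouse (y axis, linear up to 5 and log above) in the 4 thymus groups (x axis), with a dashed line at 5 counts and mice with 40 or more named. The highest points are Mef2c in M311 (182 counts), Spi1 and Cd34 in m121 (104 and 70) and Bcl11a in M318 (67), and Meis1 and Hoxa9 lie below the line in all 12 mice.

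The difference of the TAL1 label effect with and without AKT(E17K) was tested over the 12 mice, where 4 members passed the filter and 0 were called, beside 0.164% of 10947 genes higher and 0% lower. Mice with and without AKT(E17K) stand in separate count tables, so AKT(E17K) and the experiment cannot be told apart in this difference. The log2 difference was 0.06 ± 1.84 for Kit (adjusted p = 1), 0.64 ± 1.51 for Mef2c (adjusted p = 0.908), -1.93 ± 1.65 for Bcl11a (adjusted p = 0.698) and -1.79 ± 1.70 for Spi1 (adjusted p = 0.727, edgeR). Spi1 was 0.24 without m121 and Bcl11a 0.62 without M318, so the sign of each rested on that mouse. With SEs of 1.51 to 1.84 on the log2 scale, only very large differences could be detected. Even the estimates of 3.81-fold for Bcl11a and 3.46-fold for Spi1 did not pass.

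Genes on the other strand overlap Bcl11a (Gm12064 and 4930538E20Rik), Meis1 (Gm16140 and Gm16141, with 3 more genes on its own strand), Flt3 (Gm26597) and Cd34 (Gm16897), and the strand setting of the counting is not given in the sources used here, so reads of these pairs may be mixed or lost. Hoxa9 holds Mir196b on its own strand. No annotated gene overlaps Erg, Mef2c, Kit, Hhex or Spi1.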

How the data were processed

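The authors deposited raw counts, whole numbers per gene and library without normalization. Tools named in the submitters' processing notes were FastQC, HISAT2, SAMtools and HTSeq, with builds mm10 and GRCm38. HTSeq summary lines, 44.7% to 50.9% of all counts in ProT cells and 62.1% to 66.6% in EV and TAL1 mice, were left out. Genes were tested within each table with edgeR 4.0.16 in R 4.3.3 (TMM, filterByExpr with a minimum count of 10, quasi-likelihood F test, Benjamini-Hochberg threshold 0.05), after tests on simulated data. The 15 ProT libraries shared 1 estimate of the spread. CPM are counts over the filtered total times the TMM factor, and likeness used log2 CPM with a prior count of 2. SE is the absolute log2 fold change over the square root of F. DESeq2 1.42.0, other scalings, no filter, a replicate block and left-out libraries were alternatives. From each of 7 lists, at most 3 called genes were named per contrast by rule, and Grb2, Sla, Stat5a, Stat5b, Stat3, Runx1, Nfe2, Ikzf2 and Runx2 after their values were seen. The values of 1 called surface gene are not reported here. The alternatives for list genes were added after seeing the data. The members and lists were chosen with earlier results of these data known. No libraries held identical values.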

Additional observations from a re-analysis of the deposited data

How the results depend on the processing

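The member calls over all times were 2 to 4 and in the contrasts of 12 h, 24 h and 6 to 12 h 2 to 3 without each library in turn. Counts of all genes moved more, and the causes were not tested. Without each library in turn the 12 h calls were 819 to 2140 (against 1635), those of 18 h 419 to 1752 (1200), those of 24 h 1447 to 3164 (2549), and those from 6 to 12 h 657 to 2434 (1477). From 12 to 24 h, 1 to 90 were higher (5) and 9 to 123 lower (21). Over all times they were 1810 to 3533 (2455). For TAL1 against EV they were 337 to 661 (623), for AKT with TAL1 against AKT 0 to 8 (0), and for the difference of these effects 2 to 173 (18). Counts moved by over 1.5 times at 12 h without the first (918) or second 0 h library (819), at 18 h without these (619 and 471) or the first (419) or second 18 h library (769), and at 24 h without these 0 h libraries (1562 and 1447) or the first (1682) or second 24 h library (1665). From 6 to 12 h they did so without the first (2434), second (657) or the third 6 h library (798) or the second 12 h library (890). From 12 to 24 h they did so without the first 6 h library (11 higher, 49 lower), the first (90 and 123), second (1 higher) or the third 12 h library (1 and 9) or the first (1 and 10) or the third 24 h library (1 and 12). For TAL1 against EV the mice were M312 (337), M315 (359), M317 (403) and M318 (356), and for AKT with TAL1 m124 (8) and m119 (1). For the difference of effects they were m121 (11), m122 (3), m124 (173), m119 (49), and m116, M311, M312, M315, M317 and M318 (2 each). With the 2 times fitted alone, 2244 genes were called at 18 h and 573 from 6 to 12 h. From 12 to 24 h, 3 were higher with library size only and 1 with the 2 times alone. With no filter, 22 were higher and 99 lower from 12 to 24 h. It called 1107 for TAL1 against EV (1 member, Mef2c) and 30 for AKT with TAL1. DESeq2 called 1 at 6 h and 76 for AKT with TAL1. Of 1100 alternative fold changes of members, 54 changed sign, 50 of them where the reported value was within 1 SE of 0. The other 4, with the range without each library in turn, were Mef2c in TAL1 against EV (-2.70 to 0.88, the highest without M311), the difference of effects for Spi1 (-3.17 to 0.24, the highest without m121) and Bcl11a (-3.30 to 0.62, the highest without M318), and Spi1 at 6 h (-0.0014 to 0.36, the lowest without the first 6 h library). Replicate numbers did not pair the ProT libraries (same-numbered deviations correlated at -0.14 to 0.21, with 1 of 30 over 0.1), and a replicate block gave 1639 genes at 12 h, 1234 at 18 h, 2662 at 24 h and 2512 over all times (2455 without it), with 3, 2, 3 and 3 members called, as without it. Depth limits Meis1 and Hoxa9 everywhere and most members in thymus.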
